A study of Mus musculus with 12 samples.

Results

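The genes described here are 10 paternally expressed imprinted genes of the mouse, Plagl1, Peg3, Usp29, Zrsr1, Nnat, Peg10, Sgce, Impact, Snrpn and Mest, taken by gene name from a table of 32285 genes. Imprinted genes of the H19 and Dlk1 loci were left out by the choice. Transcripts were counted in IB10 embryonic stem cells, a line derived from 129/Ola mice and grown on gelatin in medium conditioned by Buffalo rat liver cells, with serum and leukaemia inhibitory factor, without treatment. There were 4 genotypes with 3 libraries each: wild type, a knockout of the helicase DHX36, a knockout of FANCJ, a DNA helicase whose mouse gene is Brip1, and the knockout of both. All groups share the IB10 background, and the sources used here do not give the number of clones per genotype, so differences between genotypes and between clones cannot be told apart. Whether libraries of 1 genotype came from separate cultures is not labelled, so each p-value reflects only the spread among these samples, and that spread may be technical.

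Genomic imprinting makes a gene's expression depend on the parent it came from: DNA methylation set in the germline at a control region silences one parental copy, and the mark is kept through early development by factors such as the zinc finger protein ZFP57. All of these genes are known to be transcribed from the paternal copy, most of them because the maternal copy is methylated at or near the promoter. In embryonic stem cells such marks are known to be maintained imperfectly in culture. The counts do not separate parental copies, so every value below is a sum over both.

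In the FANCJ knockout 3 of the 10 genes, Plagl1, Peg3 and Zrsr1, were higher than in wild type and none was called lower, where 2.07% of all 12765 genes tested were called. In the DHX36 knockout 4 were lower, Nnat, Peg10, Sgce and Peg3, and Zrsr1 was higher, where 24.4% of all genes were called. Plagl1 and Zrsr1 were higher and Nnat, Peg10, Sgce and Mest lower in the double knockout than in wild type, where 33.9% of all genes were called. Snrpn and Impact passed in no comparison with wild type, nor did Usp29, the gene with the lowest counts. All 10 passed the expression filter. The largest changes against wild type were those of Plagl1 in the FANCJ knockout (3.88-fold higher) and of Nnat in the double knockout (4.03-fold lower).

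Promoter sequence is shown for the genes that passed in the largest number of comparisons, Plagl1, Nnat and Zrsr1, since imprinting marks lie on CG dinucleotides. The stretch between the RefSeq start sites of Peg3 and Usp29 is shown as well. By the gene positions given below, it includes a few bases of each of these genes. Of the 10 genes, 7 matched a RefSeq promoter on GRCm38.p6; Peg10, Sgce and Impact did not. Each stretch is read 5′ to 3′ on the strand named, is cut where an annotated untranslated region begins, and has every CG in capitals. The Plagl1 stretch is chr10:13090582-13090787, plus strand, before a RefSeq start that lies inside the annotated gene; that of Nnat is chr2:157559828-157560077, plus strand; that of Zrsr1 is chr11:22971755-22972004, plus strand; the shared stretch is chr7:6730422-6730582, read on the minus strand, towards Peg3.
Plagl1: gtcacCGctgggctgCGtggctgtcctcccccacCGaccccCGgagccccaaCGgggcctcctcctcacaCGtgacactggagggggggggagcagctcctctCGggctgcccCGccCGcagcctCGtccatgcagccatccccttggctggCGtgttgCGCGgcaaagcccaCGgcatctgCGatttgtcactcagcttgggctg
Nnat: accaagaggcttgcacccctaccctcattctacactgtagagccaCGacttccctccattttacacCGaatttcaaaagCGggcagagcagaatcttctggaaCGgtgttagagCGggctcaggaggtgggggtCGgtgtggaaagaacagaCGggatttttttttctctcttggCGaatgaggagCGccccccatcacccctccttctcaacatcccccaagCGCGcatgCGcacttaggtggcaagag
Zrsr1: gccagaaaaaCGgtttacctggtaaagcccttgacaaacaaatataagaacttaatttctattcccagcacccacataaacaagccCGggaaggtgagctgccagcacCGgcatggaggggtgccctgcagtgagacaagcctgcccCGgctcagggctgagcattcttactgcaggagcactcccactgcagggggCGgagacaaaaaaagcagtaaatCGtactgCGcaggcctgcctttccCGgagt
Peg3 and Usp29: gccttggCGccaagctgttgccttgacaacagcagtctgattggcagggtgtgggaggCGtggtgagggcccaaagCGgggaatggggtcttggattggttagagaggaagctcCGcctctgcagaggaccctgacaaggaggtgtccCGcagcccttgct

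In the 250 bases before the annotated start, Plagl1 had 19 CG dinucleotides, Usp29 14, Nnat 12, and Peg3 and Zrsr1 8 each. The 3 Mest windows had 7, 14 and 14, and the 4 Snrpn windows 2, 3, 4 and 3. Over 32851 RefSeq windows of that length the median was 6 and the mean 9.86, so that Peg3 and Zrsr1 lay between them and Snrpn below both. The letters TGCCGC, the ZFP57 recognition motif, were searched on both strands and occurred in 8.68% of those windows. They stood once in the Plagl1 window, at positions 13090742 to 13090747 on the minus strand, and in 2 places in a Mest window that starts at 30737800 on chromosome 6. The letters AAGATGGC, a YY1 motif found in 1.56% of windows, matched none of the windows of the 7 genes searched. Motifs for G-quadruplexes, the folded guanine-rich structures that DHX36 and FANCJ unwind, were taken as 4 runs of at least 3 G with loops of 1 to 7 bases on either strand and occurred in 16.7% of windows. Among the 7 genes searched 1 stood in the Peg3 window, at chr7:6730639-6730664 on the plus strand. It lay inside the annotated first exon of Usp29 and on that gene's sense strand. Its G runs are in capitals here.
Usp29 exon: GGGGGatGGGatgtGGGtgtgaaGGG

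Total counts ranged from 4284785 to 14721931 per library, with every DHX36 knockout and every double knockout library deeper than every wild-type library. Mitochondrial genes took 10.0 to 10.6% of counts in wild type, 11.01 to 12.3% with DHX36 lost, 11.2 to 11.5% with FANCJ lost and 11.9 to 13.2% with both lost, above wild type in every knockout library; their part in the changes below was not tested. Dhx36 was at 50.1 to 57.6 CPM (counts scaled to a common, normalised library total) in wild type and at most 15.1 CPM in any library without DHX36, and Brip1 at 6.72 to 7.03 CPM in wild type and at most 0.744 CPM in any library without FANCJ. Remaining Dhx36 RNA was higher in the double knockout, at 12.2 to 15.1 CPM, than in the DHX36 knockout, at 8.84 to 11.6 CPM (log2 0.39, edgeR adjusted p = 0.0456). The part of that difference in comparisons of these 2 genotypes was not tested. Summed levels of 8 embryonic stem cell markers were 3640 to 3729 CPM in wild type, 3994 to 4324 with DHX36 lost, 3326 to 3488 with FANCJ lost and 5017 to 5045 with both lost, and all 8, Pou5f1, Sox2 and Nanog among them, had counts in every genotype. Markers of other lineages moved with genotype as well. Those of primitive endoderm summed to 679 to 707 CPM in the FANCJ knockout against 473 to 591 in wild type, with 6 of 9 tested markers higher and 0 lower. Fibroblast and trophoblast markers were above wild type there too in sum, at 992 to 1019 and 1004 to 1054 CPM against 675 to 835 and 827 to 983. Of the tested markers 2 of 8 and 1 of 7 were higher and 0 lower. Their median log2 changes were -0.16 and 0.14, so the higher fibroblast sum was not shared across that list. Mesendoderm markers summed to 30.1 to 32.3 CPM in wild type, 53.5 to 65.8 with DHX36 lost, 22.2 to 26.5 with FANCJ lost and 34.7 to 36.2 with both lost, and Gsc among them was at 0 in wild type. Of the fibroblast markers, 8 summed to 131 to 148 CPM in the double knockout against 675 to 835 in wild type, with 6 lower and 1 higher. In bulk samples, fewer cells of a type and less RNA per cell cannot be told apart.

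**Figure D1:**
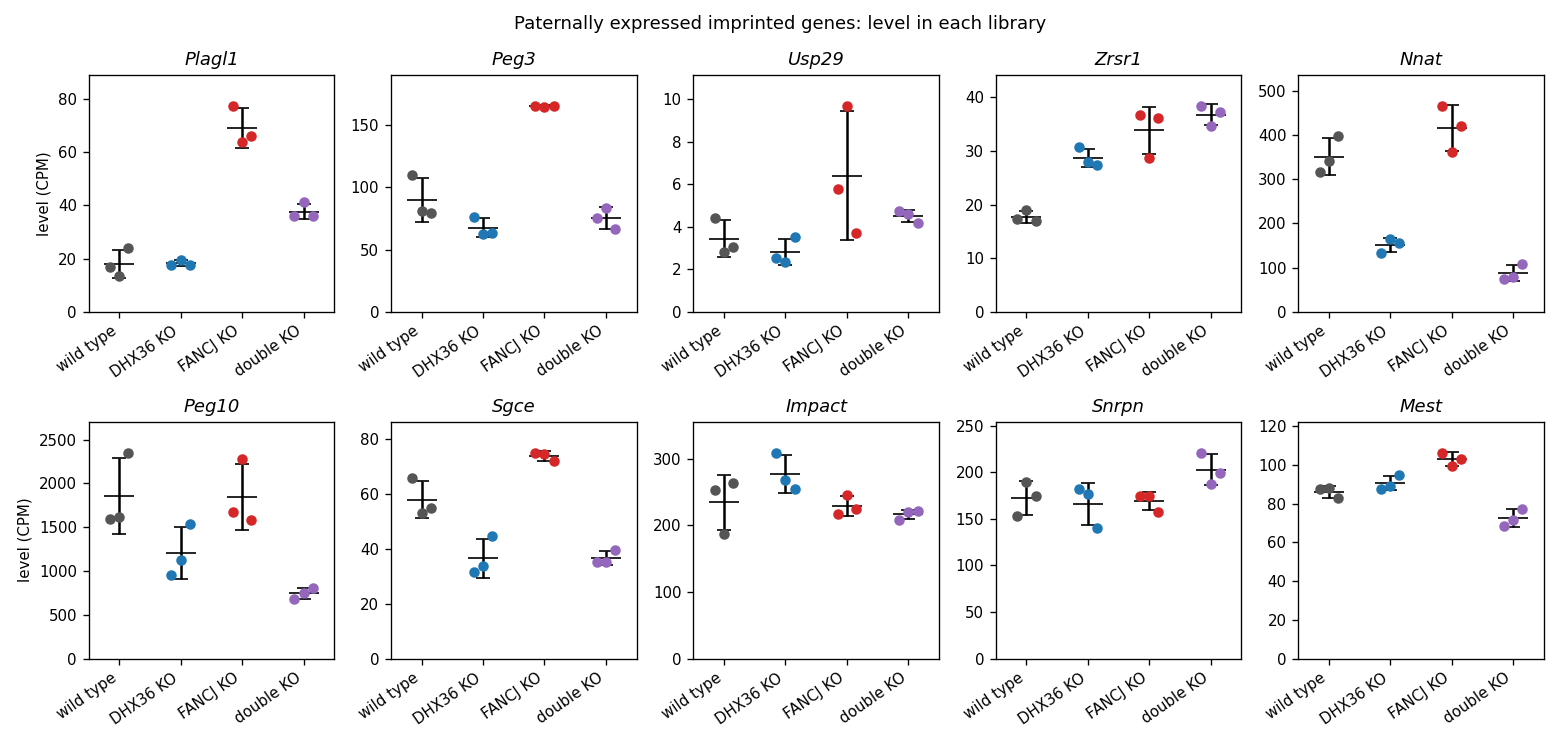
Level of each of the 10 genes in every library, in CPM on linear axes that start at 0, with a colour for each genotype. Points are libraries, and the bar and whiskers are the mean and SD of 3. Plagl1 and Peg3 peaked in the FANCJ knockout, Nnat was lowest in the double knockout, and Zrsr1 was lowest in wild type.

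Plagl1 encodes a zinc finger transcription factor that restrains growth and regulates other imprinted genes, and lies on chromosome 10 (ENSMUSG00000019817, GRCm38, 13060504 to 13131694, plus strand). It was at 16.8, 13.4 and 23.9 CPM in wild type, 17.6, 19.6 and 17.5 with DHX36 lost, 77.3, 63.6 and 66.0 with FANCJ lost and 35.8, 41.1 and 36.0 with both lost. Thus each FANCJ knockout library was above each double knockout library, which in turn lay above all 6 libraries with FANCJ. On the log2 scale the change from wild type was 1.96 (SE 0.15) without FANCJ (edgeR adjusted p = 5.8e-08) and 1.08 (SE 0.15) without both (edgeR adjusted p = 9.4e-06). It was 0.03 without DHX36 (edgeR adjusted p = 0.932), with a 95% interval (1.96 SE either side) of -0.29 to 0.35. The double knockout was lower than the FANCJ knockout by 1.84-fold (log2 -0.88, SE 0.13). Primitive endoderm markers were also higher in the FANCJ knockout (6 of 9, as above), with none of the list at 0 in any genotype. The sums of the fibroblast and trophoblast lists were higher there too, though the median log2 change of the fibroblast list was -0.16. The part of these lists in the rise of Plagl1 or Peg3 was not tested.

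None of the tested neighbours of Plagl1 within 250 kb passed in the FANCJ knockout. In the double knockout Stx11, a syntaxin gene 96206 bp away, was lower (log2 -1.29, SE 0.26), as was the dystrophin relative Utrn, 191139 bp away (-0.54, SE 0.09). Over the 12 libraries the genes most alike to Plagl1 in log2 CPM, among 5700 others with a mean of at least 20 CPM, were Pcgf3 and 4931406P16Rik (Pearson's r = 0.92 for either), the antiproliferative gene Btg2 (0.90), the splicing regulator Sfswap and the Wnt coactivator Bcl9l (0.88 each). These correlations describe libraries of 4 genotypes that differ in depth. Of 12 genes listed as reported targets of Plagl1, 10 were tested and 3 were higher in the FANCJ knockout with 0 lower, a count that includes Peg3 itself, beside H19 and Igf2. In the double knockout, where Plagl1 was also higher, 2 of the 10 were higher and 5 lower. In the DHX36 knockout, where Plagl1 was at 0.03, 1 was higher and 3 lower. Of all genes, 2.07%, 33.9% and 24.4% were called in the FANCJ, double and DHX36 knockouts. The medians were 0.28, -0.42 and -0.04 in that order, against -0.00, 0.01 and 0.00 over all genes tested. The part of Plagl1 in these values was not tested.

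Peg3 and Usp29 share a control region on chromosome 7 and are transcribed away from each other. Peg3 (ENSMUSG00000002265, 6703892 to 6730431, minus strand) encodes a large zinc finger protein with a role in growth and maternal behaviour, and Usp29 (ENSMUSG00000051527, 6730578 to 6967219, plus strand) a deubiquitinase. Peg3 was at 110.3, 80.8 and 79.2 CPM in wild type, 76.4, 62.8 and 63.5 with DHX36 lost, 166, 164 and 166 with FANCJ lost and 75.8, 83.7 and 66.3 with both lost. All 3 FANCJ knockout libraries stood above the other 9, while the double knockout overlapped wild type.

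Against wild type Peg3 rose by 0.88 (SE 0.12) on the log2 scale without FANCJ (edgeR adjusted p = 0.00015). It fell by 0.41 (SE 0.12) without DHX36 (edgeR adjusted p = 0.0149), a call that failed without wild-type library 1 (-0.25, adjusted p = 0.132) or knockout library 2 or 3 (adjusted p = 0.0610 and 0.0637). With both lost it was at -0.26 (edgeR adjusted p = 0.0981), past the threshold only without wild-type library 3 (-0.35, adjusted p = 0.0432), and it was 2.19-fold lower there than in the FANCJ knockout (edgeR adjusted p = 7.7e-08). Among the genes most alike to Peg3 over the 12 libraries were the translesion polymerase gene Polk, the mitochondrial phosphate carrier gene Slc25a3, Dbi and Csnk1g1, with r from 0.94 to 0.95.

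Usp29 had 20, 16 and 13 counts in wild type, 23, 15 and 38 with DHX36 lost, 45, 73 and 18 with FANCJ lost and 70, 58 and 47 with both lost. Its levels of 3.71 to 9.71 CPM in the FANCJ knockout overlapped the 2.83 to 4.43 CPM of wild type. The change was 0.95 (SE 0.32) there, close in size to that of Peg3 but with a wider error, and did not pass (edgeR adjusted p = 0.136). Without an expression filter it did (adjusted p = 0.0408). Between the double and the FANCJ knockout it was at -0.54 (adjusted p = 0.111), and at -0.77 (adjusted p = 0.0222) without FANCJ knockout library 3. Counts of Peg3 per count of Usp29 were 24.9 to 28.6 in wild type, 18.1 to 29.9 with DHX36 lost, 16.9 to 44.6 with FANCJ lost and 15.9 to 18.1 with both lost, which overlapped both single knockouts and lay below wild type. The 3′ end of Usp29 overlaps Zim3, which had 54 counts in all on the opposite strand of the annotation, and without stated strand handling such tags cannot be assigned.

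Zim1, a maternally expressed zinc finger gene 7442 bp from Peg3, had 10, 17 and 7 counts in wild type, 1, 6 and 7 with DHX36 lost, 22, 20 and 14 with FANCJ lost and 4, 4 and 7 with both lost, despite the greater depth of the last. Without DHX36 its log2 change was -2.08 (SE 0.52, edgeR adjusted p = 0.00522). In the double knockout Zim1 was at -2.53 (SE 0.51), a call lost at equal depth (-1.48, adjusted p = 0.0917).

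Zrsr1 was the only one of the 10 genes that was higher than wild type in all 3 knockout genotypes. It is a retrocopy of the X-linked splicing factor gene Zrsr2 and sits inside the gene Commd1 on chromosome 11 (ENSMUSG00000044068, 22972005 to 22976496, plus strand), where 412 exonic bases overlap in the annotation. Its level was 17.3, 18.9 and 16.9 CPM in wild type, 30.7, 27.9 and 27.5 with DHX36 lost, 36.6, 28.7 and 36.1 with FANCJ lost and 38.4, 34.7 and 37.2 with both lost. No knockout library overlapped wild type. The log2 changes were 0.69 (SE 0.13) without DHX36 (edgeR adjusted p = 0.00038), 0.92 (SE 0.13) without FANCJ (edgeR adjusted p = 0.00026) and 1.05 (SE 0.12) without both (edgeR adjusted p = 9.7e-07).

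Between the double and the FANCJ knockout Zrsr1 differed by 0.13 (95% interval -0.09 to 0.34, edgeR adjusted p = 0.397). The double knockout was above the DHX36 knockout by 0.36 (edgeR adjusted p = 0.0236), a call lost at equal depth (0.0643), without DHX36 knockout library 2 or 3 (0.0697 and 0.0922), or without double knockout library 1 or 3 (0.0921 and 0.0510). Commd1, on the opposite strand, passed in no comparison with wild type (-0.21, -0.16 and -0.18 without DHX36, FANCJ or both). Zrsr2, whose similar sequence could exchange tags with Zrsr1, was at -0.08, 0.05 and -0.06. Cct4, 14023 bp from Zrsr1, was lower without DHX36 (-0.33, edgeR adjusted p = 0.00268) and without both (-0.36, edgeR adjusted p = 0.000811). Fam161a, 31035 bp away, was higher without both (0.81, edgeR adjusted p = 0.0373), a call lost in 9 of 12 alternatives.

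**Figure D2:**
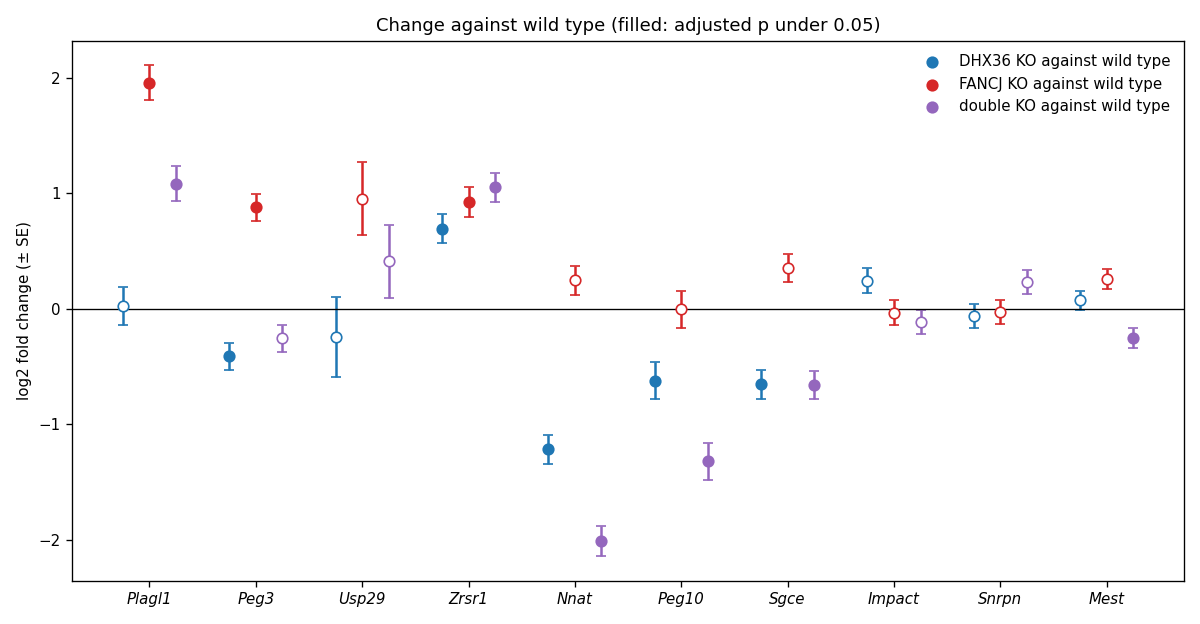
Log2 fold change of the 10 genes against wild type in each knockout genotype, with SE as whiskers from the fit over 12 libraries. Filled points had an adjusted p under 0.05. Plagl1 reached 1.96 in the FANCJ knockout, and Nnat, Peg10 and Sgce were at or below -0.62 in both genotypes without DHX36.

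Nnat had the largest falls of the 10. Its product, neuronatin, is a small membrane proteolipid of the endoplasmic reticulum known from the developing brain, and the gene lies inside Blcap on chromosome 2 (ENSMUSG00000067786, 157560078 to 157562522, plus strand). It was at 316, 340 and 397 CPM in wild type, 133, 165 and 156 with DHX36 lost, 466, 362 and 419 with FANCJ lost and 74.8, 79.8 and 107 with both lost. All double knockout libraries lay below the DHX36 knockout, and both groups lay below the 6 libraries with DHX36. Nnat fell by 1.21 (SE 0.13) on the log2 scale without DHX36 (edgeR adjusted p = 3.6e-07) and by 2.01 (SE 0.13) without both (edgeR adjusted p = 1.2e-10).

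The step from the DHX36 to the double knockout was -0.80 (SE 0.13) for Nnat (edgeR adjusted p = 9.5e-05). In the FANCJ knockout it was at 0.25 (SE 0.12) and did not pass (edgeR adjusted p = 0.357). Blcap, its host on the opposite strand, was at -0.04 in the DHX36 knockout (adjusted p = 0.896) and -0.50 in the double knockout (adjusted p = 0.0418). The latter call was lost in 9 of 12 alternatives, including without wild-type library 1 (0.164), 2 (0.0591) or 3 (0.0565) or double knockout library 2 (0.136) or 3 (0.100). Neuroectoderm markers moved with Nnat in part: 4 of 5 tested were lower in the DHX36 knockout and 1 higher, and 4 were lower in the double knockout. Their summed level was 158 to 166 CPM in wild type, 178 to 182 in the DHX36 knockout and 127 to 143 in the double knockout. All 6 had counts in every genotype, and their part in the change of Nnat was not tested.

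Peg10 and Sgce start 99 bases apart on chromosome 6 and are transcribed in opposite directions. Peg10 (ENSMUSG00000092035, 4747306 to 4760517, plus strand) derives from a retrotransposon and is needed for the placenta, and Sgce (ENSMUSG00000004631, 4674350 to 4747207, minus strand) encodes epsilon-sarcoglycan, a membrane glycoprotein. Peg10 was at 1591, 1620 and 2353 CPM in wild type, 959, 1120 and 1537 with DHX36 lost, 1678, 2282 and 1579 with FANCJ lost and 682, 749 and 802 with both lost. Its libraries spread widely within genotypes, but the double knockout lay below all others and the DHX36 knockout below both genotypes with DHX36.

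Peg10 was at -0.62 (SE 0.16) against wild type without DHX36 (edgeR adjusted p = 0.0062), and at -0.42 without wild-type library 3, where the call was lost (adjusted p = 0.0532). With both lost it fell by 1.32 (SE 0.16, edgeR adjusted p = 1.5e-06). In the FANCJ knockout it was at -0.01, with a 95% interval of -0.31 to 0.30. The step from the DHX36 to the double knockout was -0.70 (SE 0.16, edgeR adjusted p = 0.0032). Trophoblast markers summed to 827 to 983 CPM in wild type, 513 to 581 with DHX36 lost and 365 to 394 with both lost, with 3 of 7 tested lower and 1 higher in the first of these knockouts and 3 lower and 3 higher in the second. Elf5, a defining marker, was at 0 in wild type. The summed level of the fibroblast markers was 354 to 389 CPM with DHX36 lost, with 3 of 8 lower, 1 higher and a median log2 change of -0.13. The part of the trophoblast or fibroblast list in the values of Nnat, Peg10 and Sgce was not tested.

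Sgce was at 65.8, 53.2 and 54.8 CPM in wild type, 31.5, 33.6 and 44.6 with DHX36 lost, 75.1, 74.6 and 72.0 with FANCJ lost and 35.1, 35.3 and 39.5 with both lost. The 6 libraries without DHX36 overlapped one another and lay below the 6 with it. Sgce fell by 0.65 (SE 0.12) on the log2 scale without DHX36 (edgeR adjusted p = 0.00048) and by 0.66 (SE 0.12) without both (edgeR adjusted p = 0.00021). Unlike Peg10, it showed no further step from the DHX36 to the double knockout (-0.01, 95% interval -0.24 to 0.23); the difference between the 2 genes was not tested. In the FANCJ knockout every library was above wild type, at 0.36 (SE 0.12), but the change did not pass (edgeR adjusted p = 0.144). Counts of Peg10 per count of Sgce were 24.2 to 42.9 in wild type, 30.5 to 34.5 with DHX36 lost, 21.9 to 30.6 with FANCJ lost and 19.4 to 21.3 with both lost. That ratio was thus lower in each double knockout library than in any other library.

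Casd1 and Ppp1r9a, both near this pair, went the other way in the DHX36 knockout. Casd1, a sialic acid acetyltransferase gene 30995 bp from Sgce, was higher (0.61, SE 0.14, edgeR adjusted p = 0.00224). So was Ppp1r9a, a maternally expressed actin-binding protein gene 142400 bp from Peg10 (0.54, SE 0.15, edgeR adjusted p = 0.00998), a call that failed without wild-type library 2 (0.38, adjusted p = 0.0908). Across the 12 libraries Nnat correlated with Peg10 (r = 0.91) and Sgce (r = 0.88), and Peg3 with Sgce (r = 0.85), as a description of libraries that differ in genotype and depth.

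Mest, Impact and Snrpn moved least. Mest, which encodes an enzyme of the alpha/beta hydrolase family known from mesoderm, lies on chromosome 6 (ENSMUSG00000051855, 30723547 to 30748465, plus strand). It was at 87.5, 88.2 and 82.7 CPM in wild type, 87.6, 89.2 and 94.8 with DHX36 lost, 106, 99.2 and 103 with FANCJ lost and 68.2, 71.6 and 77.4 with both lost. The FANCJ knockout libraries were above and the double knockout libraries below all others. Against wild type, neither the FANCJ knockout (0.26, SE 0.09, edgeR adjusted p = 0.139) nor the DHX36 knockout (0.07, adjusted p = 0.584) passed.

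The double knockout passed for Mest at -0.25 (edgeR adjusted p = 0.0254), with the call lost without an expression filter (0.106), without wild-type library 1 or 2 (0.0676 and 0.0815) or without double knockout library 1 or 2 (0.110 and 0.0733). The double knockout was below the FANCJ knockout by 0.51 (SE 0.08) on the log2 scale (edgeR adjusted p = 4.7e-05). Copg2, a coat protein gene on the opposite strand whose exons overlap those of Mest by 912 bases, 3′ end included, was at 0.45 in the DHX36 knockout (edgeR adjusted p = 0.0105), a call that failed without wild-type library 1 (0.0568) or 2 (0.0635). It was at -0.04 and -0.03 in the FANCJ and double knockouts. Since strand handling was not given, tags of this overlap could fall to either gene.

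Impact, a gene on chromosome 18 (ENSMUSG00000024423, 12955852 to 12992950, plus strand) whose product restrains the kinase GCN2, was at 253, 188 and 264 CPM in wild type and 309, 269 and 254 in the DHX36 knockout. It was at 217, 246 and 224 CPM with FANCJ lost and 209, 220.03 and 221 with both lost, so that the DHX36 knockout lay above both genotypes without FANCJ while wild type overlapped every other group. Against wild type it was at 0.24, -0.03 and -0.11 without DHX36, FANCJ or both (edgeR adjusted p = 0.104, 0.929 and 0.441). The first of these passed without wild-type library 3 (0.33, adjusted p = 0.0461). The double knockout was lower than the DHX36 knockout by 1.28-fold (edgeR adjusted p = 0.0194), a call lost at equal depth (0.0803), without DHX36 knockout library 1 (0.115), or without double knockout library 1 (0.0755) or 2 (0.0511).

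Snrpn encodes a core spliceosomal protein and lies in the imprinted Prader-Willi region on chromosome 7 (ENSMUSG00000102252, 59982495 to 60140219, minus strand). Its level was 153, 189.9 and 174 CPM in wild type, 181, 176 and 140.05 with DHX36 lost, 175, 175 and 157 with FANCJ lost and 221, 188 and 199 with both lost. The changes were -0.06, -0.03 and 0.23, and none passed (edgeR adjusted p = 0.724, 0.939 and 0.0878). The 95% intervals in the single knockouts were -0.26 to 0.14 and -0.23 to 0.18. The change in the double knockout passed without an expression filter (adjusted p = 0.0460) or without wild-type library 2 (0.31, adjusted p = 0.0485).

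The double knockout was above either single knockout for Snrpn (0.29 and 0.26, edgeR adjusted p = 0.0471 and 0.0499). The first of these calls was lost without DHX36 knockout library 2 (0.0558) or 3 (0.18, adjusted p = 0.257), or double knockout library 1 (0.203) or 3 (0.0705). The second was lost in 7 of 12 alternatives: with the size factors of DESeq2 (0.0563), with DESeq2 (0.0680), without FANCJ knockout library 1 (0.0851), 2 (0.0724) or 3 (0.166), or without double knockout library 1 (0.206) or 3 (0.0822). Gm38393, a predicted gene on the same strand that shares 589 exonic bases with Snrpn, had 204 counts in all and could take some of its tags. Snhg14, the snoRNA host transcript 6736 bp away, was at 0.03, 0.42 and 0.36 (edgeR adjusted p = 0.891, 0.0627 and 0.0169). The last call was lost at equal depth (0.132), without wild-type library 1 (0.0895) or without double knockout library 1 (0.0564) or 2 (0.0678).

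**Figure D3:**
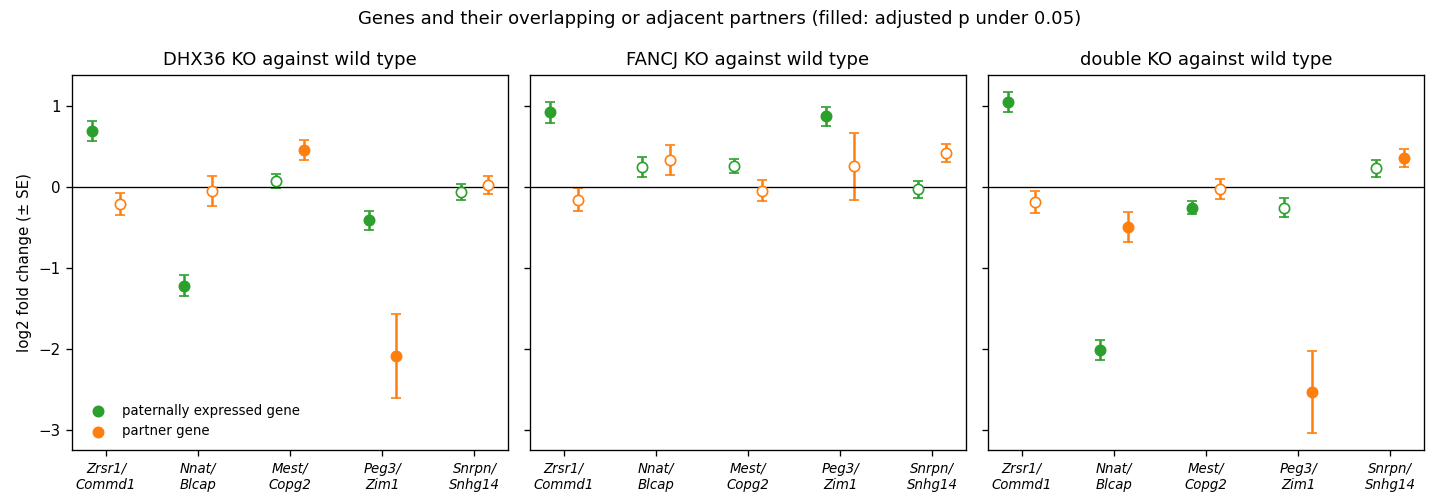
Log2 fold change against wild type, with SE as whiskers, of 5 of the genes (green) and an overlapping or adjacent gene of the same domain (orange). Filled points had an adjusted p under 0.05. Commd1 stayed within 0.21 of 0 while Zrsr1 was at 0.69 to 1.05, and Zim1 was at -2.08 in the DHX36 knockout beside Peg3 at -0.41.

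Counted over the 10 genes, 1 rose and 4 fell in the DHX36 knockout, where 24.4% of all 12765 genes changed, 12.8% upwards and 11.6% downwards. The median log2 change was -0.15, against 0.00 over all genes. In the FANCJ knockout 3 rose and 0 fell, where 2.07% of all genes changed, 1.45% upwards and 0.619% downwards, with a median of 0.31 against -0.00. All 3 libraries lay above wild type in 5 of the 10 and in 10% of all genes, and below it in 0 of the 10 and in 8.7% of all genes. In the double knockout 2 rose and 4 fell, where 33.9% of all genes changed, 16.6% upwards and 17.3% downwards, with a median of -0.18 against 0.01. Without adjustment 6, 6 and 8 of the 10, and 4591, 1910 and 5535 of all 12765 genes, had a p under 0.05 in these comparisons. The 3 share the wild-type libraries, so their values are not independent.

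The double knockout differed from the DHX36 knockout in 7 genes, 3 up (Plagl1, Zrsr1 and Snrpn) and 4 down (Nnat, Peg10, Impact and Mest), where 19.7% of all genes changed, 8.28% upwards and 11.4% downwards. The libraries did not overlap for 8 of the 10, as for 36.9% of all genes. It differed from the FANCJ knockout in 7 as well, with Snrpn up and Plagl1, Peg3, Nnat, Peg10, Sgce and Mest down, where 36.8% of all genes changed, 18.3% upwards and 18.5% downwards. The libraries did not overlap for 7 of the 10, as for 48.7% of all genes, and lay all above for 1 of the 10, as for 24.8%. The median was -0.71 in the latter comparison, against 0.02 over all genes.

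The effect of FANCJ loss was smaller or lower in cells without DHX36 than in cells with it for 5 of the 10 genes by the test of that difference, and higher for none, where 8.79% of all genes changed, 2.73% higher and 6.06% lower. For Plagl1 the effect was 1.96 with DHX36 and 1.05 without it, a difference of -0.90 (SE 0.21, edgeR adjusted p = 0.0068). Peg3 rose by 0.88 with DHX36 and was at 0.16 without it, a difference of -0.72 (SE 0.16, edgeR adjusted p = 0.0064). For Nnat the values were 0.25 and -0.80, a difference of -1.04 (SE 0.18, edgeR adjusted p = 0.00049), and for Mest 0.26 and -0.32, a difference of -0.58 (SE 0.12, edgeR adjusted p = 0.0028). Nnat and Mest thus fell with FANCJ loss in cells without DHX36, and were not called in cells with it.

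Zrsr1, at 0.92 and 0.36, also passed that test (-0.57, SE 0.17, edgeR adjusted p = 0.0395), but its call was lost in 11 of 17 alternatives. These were the fit without an expression filter (0.0502), equal depth (0.101) and the fits without any one of 9 libraries: wild-type 1 and 3 (0.0799 and 0.0802), DHX36 knockout 1 and 2 (0.0953 and 0.0558), FANCJ knockout 1 and 3 (0.108 and 0.0822) and double knockout 1, 2 and 3 (0.0540, 0.0956 and 0.0574). The call of Plagl1 was lost at equal depth (-0.83, adjusted p = 0.0618). Peg10 did not pass (-0.69, adjusted p = 0.0579), but did in 5 of 17 alternatives, among them without an expression filter (-0.70, adjusted p = 6.2e-07), without wild-type library 3 (-0.90, adjusted p = 0.0087), DHX36 knockout library 1 (-0.83, 0.0217) or FANCJ knockout library 3 (-0.79, 0.0369). Usp29, Sgce, Impact and Snrpn did not pass (edgeR adjusted p = 0.739, 0.204, 0.203 and 0.192). The median difference over the 10 was -0.57, against 0.00 over all genes. Of the primitive endoderm markers, 4 of 9 were lower and 0 higher by this test, and their part in the values of these genes was not tested.

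**Figure D4:**
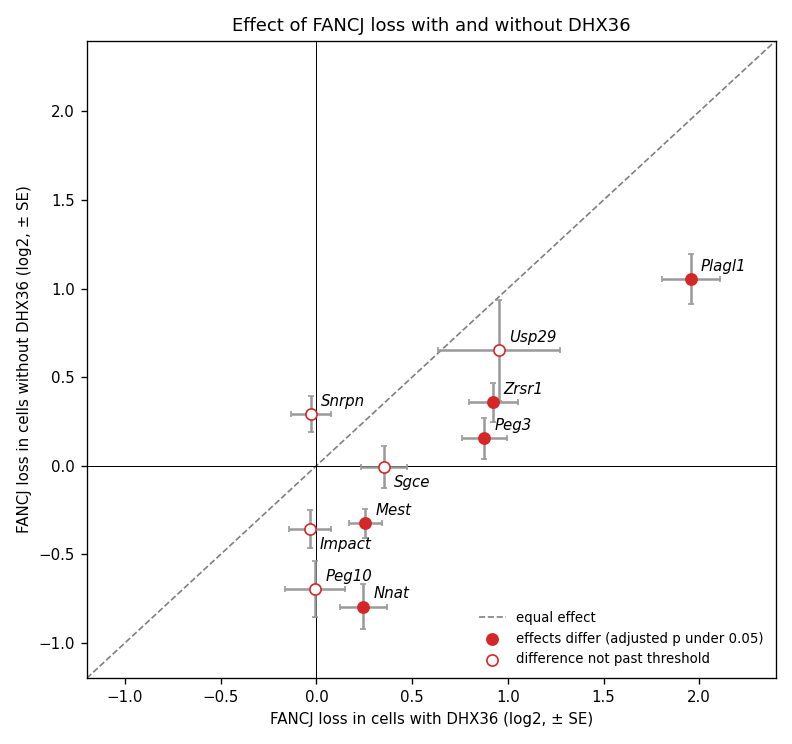
Effect of FANCJ loss on each of the 10 genes in cells with DHX36 (horizontal, FANCJ knockout against wild type) and without it (vertical, double against DHX36 knockout), on the log2 scale with SE. The dashed line marks equal effects, and filled points had an adjusted p under 0.05 for the difference. Plagl1, Zrsr1, Peg3, Mest and Nnat lie below the line, and Snrpn, the single gene above it, did not pass.

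Among 20 factors known to set, protect or erase methylation imprints, 5 were higher and 2 lower with DHX36 lost, 0 and 1 with FANCJ lost, and 7 and 0 with both lost. The shares called, 7, 1 and 7 of 20, stand beside 24.4%, 2.07% and 33.9% of all genes. Dppa3, which protects maternal methylation in the early embryo, was at 1.68 (SE 0.13) without DHX36, -1.53 (SE 0.17) without FANCJ, where it was the single factor to pass, and 1.01 (SE 0.13) without both. The de novo methyltransferase genes Dnmt3a (1.51 and 1.47) and Dnmt3b (0.55 and 0.28) were higher in both genotypes without DHX36, the second of the Dnmt3b calls being lost without wild-type library 2 (0.0510). The chromatin remodeller gene Atrx was lower in the DHX36 knockout (-0.44, SE 0.09), and Dnmt3l, a cofactor of both methyltransferases, was higher in the double knockout (0.63, SE 0.08). Zfp57, the reader of the motif searched above, passed in none of the 3 comparisons.

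Other paternally expressed genes from a list of 20, of which 15 were tested, had 0 higher and 4 lower with DHX36 lost, 2 and 0 with FANCJ lost, and 2 and 3 with both lost. Igf2, the growth factor gene, was at -0.51 without DHX36, 0.37 without FANCJ and -0.62 without both. Its rise without FANCJ was lost without wild-type library 1 or 3 (0.0832 and 0.0668) or knockout library 1 or 2 (0.0875 and 0.0602). Zdbf2, a zinc finger gene, was at -0.44, 0.22 and -0.67, and the polycomb-related gene Sfmbt2 was at -0.76 (SE 0.14) in the DHX36 knockout. At lower counts, Mkrn3 was at -1.29 in the DHX36 knockout (edgeR adjusted p = 0.0131) and Airn at 2.25 in the FANCJ knockout (edgeR adjusted p = 0.0463). Nap1l5 was at 2.25 in the double knockout (edgeR adjusted p = 0.0141). These calls were lost in 2 of 12, 6 of 11 and 2 of 10 alternatives. Of 18 maternally expressed genes tested, 3 were higher and 6 lower, 1 and 2, and 5 and 8, in the same order. Of 33 tested genes within 250 kb of the 10, 4 were higher and 3 lower with DHX36 lost, 0 and 0 with FANCJ lost, and 5 and 8 with both lost. The domain partners listed by name, 16 tested, had 3 and 2, 0 and 0, and 1 and 3. All of these counts stand beside 24.4%, 2.07% and 33.9% of all genes called in the same comparisons. With DHX36 or both lost, the counts of neighbours and of the other paternally expressed genes were near those shares. The counts of maternally expressed genes were above the share in each comparison. That list was chosen with earlier results of these data known and repeats some of the neighbours, so its counts are a description only.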

How the data were processed

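The authors deposited raw counts per gene, whole numbers for 32285 mouse genes and 92 spike-ins in 12 libraries, made by a bulk protocol similar to CEL-Seq2, per the labels' protocols. BWA and the builds GRCm38 and hg38 stand in the submitters' processing notes; the use of molecular identifiers, strand and multiply mapped reads is not given in the sources used here. Spike-ins were left out. Counts were fitted with edgeR 4.0.16 (TMM normalisation, filterByExpr by genotype, quasi-likelihood F test) in 1 model of 12 libraries and 4 genotypes, with Benjamini-Hochberg adjustment over 12765 genes and a threshold of 0.05. SE is the log2 fold change over the square root of F. The interaction subtracts the FANCJ effect in cells with DHX36 from that in cells lacking it. Counts were also simulated for FANCJ knockout against wild type over 12765 genes. The fit recovered 100% of 100 genes at a log2 change of 1 and of 100 at 2. There were 18 false calls, 8.26% of all calls. The changed genes had a mean of at least 20 CPM, and all genes were given 1 common spread. Smaller changes, changed genes with lower counts and a spread that differs between genes were thus not tried. Total counts of 4284785 to 14721931 set the counting precision.

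The 10 members and all gene lists were chosen with earlier results of these data known. Every member was named; other genes were named from the lists, from overlaps and neighbours within 250 kb, or as the 5 most alike to Plagl1 and Peg3, of which 1 is not reported here. Alternatives were DESeq2 1.42.0, its size factors in edgeR, no expression filter, 2 genotypes fitted alone, a replicate block, libraries thinned to equal depth, and each library left out. Gene positions come from GENCODE M21 on GRCm38 and promoter sequences from RefSeq on GRCm38.p6.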

Additional observations from a re-analysis of the deposited data

Results flagged for a closer look

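For 5 of the 10 genes the effect of FANCJ loss differed between cells without and with DHX36 by a test of the difference itself, where 8.79% of all genes differed, given as the effect without DHX36 minus that with it. The difference was -0.90 for Plagl1, which rose in both, -0.72 for Peg3 and -1.04 for Nnat on the log2 scale. It was -0.58 for Mest and -0.57 for Zrsr1, whose call was lost in 11 of 17 alternatives. The call of Plagl1 was lost at equal depth (-0.83, edgeR adjusted p = 0.0618).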

How the results depend on the processing

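Of 33 calls on the 10 genes, 24 held in every alternative run and 9 were lost in at least 1, with the sign kept in all; 6 of 27 results that did not pass did so in some. The count of all genes changed in the FANCJ knockout, 264, was 418 without an expression filter, 159 with 2 genotypes fitted alone and 107 at equal depth. At equal depth the double knockout differed from the DHX36 knockout in 1495 genes (2512 at full depth), and the interaction in 648 (1122 at full depth) and in 3 of the 10 genes rather than 5, which shows the limit that depth sets. With each library left out in turn, all-gene counts ran from 2503 to 2700 (DHX36 knockout), 110 to 198 (FANCJ knockout) and 3498 to 3940 (double knockout) against wild type, 1789 to 2115 and 3869 to 4206 for the double against the DHX36 and FANCJ knockouts, and 880 to 1071 for the interaction. Counts among the 10 genes ran from 4 to 5, 3 to 3, 5 to 7, 4 to 6, 6 to 7 and 4 to 5 in that order. Replicate numbers are shared between genotypes, but same-numbered libraries did not deviate together (r from -0.185 to 0.161 over 18 pairs, and 4 of 12 libraries correlated best with their own number), so the numbers were not taken as pairs. With the replicate block the 10 genes gave 5, 3, 6, 7, 7 and 6 calls, Peg10 joining in the interaction (-0.69, edgeR adjusted p = 0.0297), and all genes 3004, 233, 4264, 2387, 4581 and 1039.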
